A study of Mus musculus with 8 samples.

Results

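Hyaluronan, the long sugar polymer of the skin matrix, was followed through the 8 genes that make it, cut it and bind it. They were the synthases Has1, Has2 and Has3, the hyaluronidases Hyal1 and Hyal2, the surface proteins Cemip and Tmem2, and the receptor Cd44. The genes were taken by symbol from the Ensembl identifiers, and all 8 were found among the 54232 identifiers in the count files. Tmem2 is listed as Cemip2 in the GENCODE M21 annotation.

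The RNA came from epidermis scraped off the back skin of female mice, wild type or lacking REDD1 (knockout), in a mixed F1 background of C57Bl and 129. Their age is not given in the sources used here. Vehicle groups received acetone (200 ul), with 2 libraries per genotype. TPA groups received 4 ug of TPA, a phorbol ester used to promote skin tumours, which irritates skin. FA+TPA groups received the topical glucocorticoid fluocinolone acetonide (FA, 2 ug) 1 h before the same dose of TPA. Each of the 4 treated groups had 1 library. Skin was taken 24 h after TPA, and shaving of the back was common to all groups. REDD1, the product of Ddit4, restrains mTORC1 under stress, and the labels name no Cre or tissue restriction for its knockout.

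Hyaluronan is a chain of alternating glucuronic acid and N-acetylglucosamine. The synthases build it at the plasma membrane from UDP-activated sugars and push it out of the cell as it grows. Keratinocytes surround themselves with it, and Cd44 is their main receptor for it. Long chains are first cut at or near the cell surface, where Tmem2, Cemip and Hyal2 act, and the pieces are broken down further in lysosomes, where Hyal1 acts. Has2 is known as a gene that glucocorticoids repress in cultured skin cells.

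Library totals ranged from 16874233 to 22560098 counts. Levels are CPM, counts scaled to library size and TMM factors. On that scale 3 counts, an approximate upper limit on the expected count where 0 was seen, came to between 0.135 and 0.191 CPM. It covers counting error only. Ddit4 was between 64.2 and 128 CPM in the 4 wild-type libraries and between 4.44 and 18.8 CPM in the 4 knockout libraries. The 6 keratinocyte markers summed to between 23900 and 38500 CPM in every library, and none of them was at 0. Gm26917, a noncoding transcript, made up 8.341% to 13.83% of the counts in vehicle and 16.77% to 24.21% in treated libraries. Nothing in the labels says whether replicates came from separate animals, so p-values measure only the spread between these libraries, which may be technical. In bulk RNA, fewer cells of a type and less RNA per cell cannot be told apart.

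RefSeq promoters of 5 of the 8 genes were in the promoter table (GRCm38.p6), and 3 are printed. Cd44 was called lower with the glucocorticoid, and the differences of Has1 and Cemip did not pass the test. Whether these genes differed from each other in their response was not tested. Each line gives the 250 bases before the RefSeq start, 5′ to 3′ on the gene's strand, with matches of the searched motifs in capitals.
Has1, chr17:17855189-17855438, minus strand: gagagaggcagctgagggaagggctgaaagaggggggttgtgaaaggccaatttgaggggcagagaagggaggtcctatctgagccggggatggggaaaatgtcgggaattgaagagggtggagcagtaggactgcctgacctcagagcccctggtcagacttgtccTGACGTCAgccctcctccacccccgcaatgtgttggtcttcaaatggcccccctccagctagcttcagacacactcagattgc
Cemip, chr7:84086506-84086755, minus strand: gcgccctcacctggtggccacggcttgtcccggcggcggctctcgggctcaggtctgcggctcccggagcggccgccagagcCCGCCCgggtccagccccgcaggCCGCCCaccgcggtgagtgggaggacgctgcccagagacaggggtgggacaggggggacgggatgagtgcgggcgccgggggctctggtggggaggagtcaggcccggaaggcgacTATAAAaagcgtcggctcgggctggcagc
Cd44, chr2:102901666-102901915, minus strand: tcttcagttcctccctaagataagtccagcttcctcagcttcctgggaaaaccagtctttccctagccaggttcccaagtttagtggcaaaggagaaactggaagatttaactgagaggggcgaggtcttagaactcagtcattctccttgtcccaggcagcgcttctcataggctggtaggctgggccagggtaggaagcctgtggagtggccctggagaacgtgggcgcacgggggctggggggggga
The AP-1 motif TGANTCA, the site at which TPA-induced AP-1 factors bind, had no match on either strand in the 5 windows, and 6.75% of the 32851 promoters in the table held one. The glucocorticoid response element, searched as GNACA and TGTNC with 3 bases between them (0.387% of promoters), had no match in them either, nor had the NF-kB motif (0.98%). Those results say only that these letters are not in these windows. Of 3 motifs added after the sequences had been seen, the cyclic AMP response element TGACGTCA (1.55% of promoters) matched in Has1. The TATA box TATAAA (12.4%) matched in Cemip alone among the 5, from -29 to -24. The GC box GGGCGG (32.7%) matched 2 times in Cemip, 2 times in Hyal1 and 1 time in Hyal2, and not in Has1 or Cd44.

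TPA against vehicle was assessed over both genotypes. All 8 genes were higher in the 2 TPA libraries than in the 4 vehicle libraries, and the rises differed widely in size, from under 2-fold for Tmem2, Hyal1 and Hyal2 to 11.4-fold for Has2 and 16.6-fold for Cemip. Changes are log2 fold change ± standard error (SE) from edgeR's quasi-likelihood test on all 19251 tested genes, called at an adjusted p below 0.05. Of all tested genes, 23.2% were called higher and 22.8% lower with TPA, and 28.0% had both TPA libraries above every vehicle library. Has2 cleared the low-count cutoff of 10 counts at median depth in only 1 of 4 vehicle libraries and was tested because of its treated libraries. Of the other 7 genes, all 7 were called higher. Those 7 rose by between 0.80 (Tmem2) and 4.06 (Cemip), where the median change over all tested genes was -0.03.

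Among the synthases, Has3 (chromosome 8, 106870242 to 106884566) supplied most of the change. It stood at 12.6 and 15.3 CPM in wild-type vehicle and 15.4 and 14.3 CPM in knockout vehicle, and at 158 CPM (wild type) and 114 CPM (knockout) in TPA skin. The 4 vehicle libraries lay close together and the TPA libraries were far above them (3.25 ± 0.20, edgeR adjusted p = 8.51e-07). Its exons overlap those of Chtf8, for which the TPA difference was 0.20 ± 0.10 (edgeR adjusted p = 0.114). Has2 (chromosome 15, 56665627 to 56694539), the synthase of embryonic and wound matrix, was near the limit of detection in vehicle. Its levels there were 0.283 and 0.776 CPM in wild type and 0.281 and 0.363 CPM in knockout, from between 5 and 15 counts. With TPA it rose to 5.36 CPM (wild type) and 4.44 CPM (knockout), a difference of 3.51 ± 0.33 (edgeR adjusted p = 1.41e-05). The groups did not overlap. The antisense gene Has2os overlaps Has2 and had between 1 and 8 counts per library. Has1 (chromosome 17, 17843323 to 17855205), the third synthase, rose least. Its vehicle levels of 1.13 and 2.69 CPM in wild type and 1.08 and 1.5 CPM in knockout became 4.13 and 3.46 CPM with TPA (1.26 ± 0.30, edgeR adjusted p = 0.0053). The second wild-type vehicle library was the highest of the vehicle libraries for both Has1 and Has2. The Has1 call was lost when the knockout TPA library was left out (edgeR adjusted p = 0.0508, over the alternatives between 2.62e-05 and 0.0508).

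Of the genes that cut hyaluronan, Cemip (chromosome 7, 83932857 to 84086502), a secreted and surface-bound factor needed to depolymerise long chains, had the largest fitted rise of the 8. Without the second wild-type vehicle library Has2 rose more (3.96 against 3.81), as it did within the knockout (13.8-fold against 12.2-fold). Cemip went from 1.13 and 0.672 CPM in wild-type and 1.92 and 0.863 CPM in knockout vehicle to 22.3 CPM (wild type) and 17 CPM (knockout) in TPA skin (4.06 ± 0.30, edgeR adjusted p = 2.53e-06). Both TPA libraries were far above the highest vehicle library. Tmem2 (chromosome 19, 21778342 to 21858360), a membrane relative of Cemip, was at 37.9 and 43.7 CPM in wild-type and 52.4 and 54.3 CPM in knockout vehicle. With TPA it was at 72.2 and 90.9 CPM (0.80 ± 0.09, edgeR adjusted p = 3.15e-05). The lysosomal hyaluronidase Hyal1 (chromosome 9, 107576927 to 107581710) went from 17.1 and 18.9 CPM in wild-type and 19 and 22.5 CPM in knockout vehicle to 34.9 and 34.8 CPM (0.85 ± 0.11, edgeR adjusted p = 0.000108). Its exons overlap those of Naa80 and Hyal3, and because the strand and overlap settings of the counting are not given, the split of reads among the 3 genes is uncertain. Naa80 rose by 0.45 ± 0.17 (edgeR adjusted p = 0.0454) and Hyal3 differed by 0.20 ± 0.33 (edgeR adjusted p = 0.66). The membrane-anchored Hyal2 (chromosome 9, 107567945 to 107572779), the next gene along, was at 22.3 and 23.3 CPM in wild-type and 21.3 and 25.1 CPM in knockout vehicle, and at 45 and 36.3 CPM with TPA (0.81 ± 0.11, edgeR adjusted p = 0.000142). Neither hyaluronidase gene overlapped between vehicle and TPA libraries.

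The receptor Cd44 (chromosome 2, 102811141 to 102901665) was the most abundant of the 8. It was at 177 and 208 CPM in wild-type and 237 and 243 CPM in knockout vehicle. With TPA it stood at 537 CPM (wild type) and 591 CPM (knockout), both far above every vehicle library (1.39 ± 0.09, edgeR adjusted p = 1.24e-06).

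**Figure D1:**
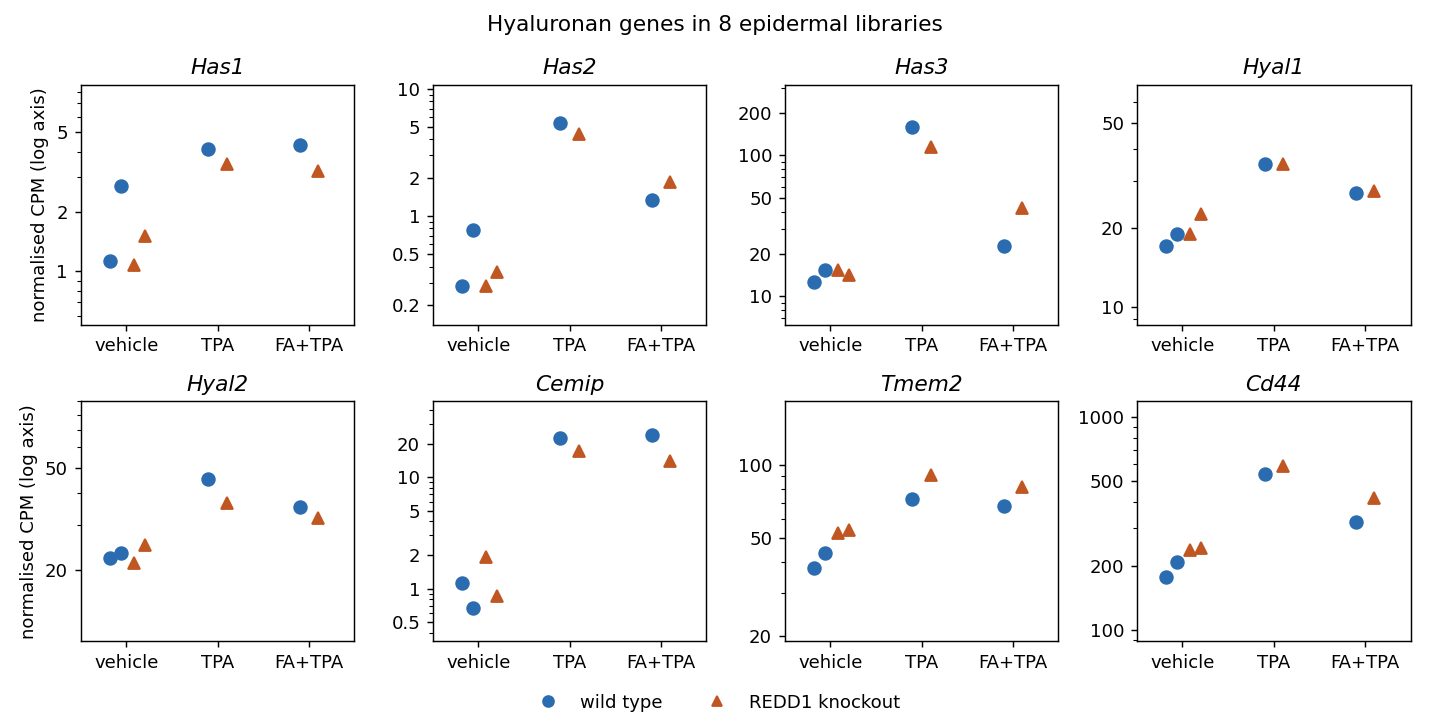
Normalised CPM (log axis, its range set for each gene) of the 8 hyaluronan genes in each of the 8 libraries, grouped by treatment on the horizontal axis; circles are wild-type and triangles REDD1 knockout libraries. Each gene's TPA points lie above its 4 vehicle points, and Has2, Has3 and Cd44 come down in the FA+TPA libraries while Has1 and Cemip stay near their TPA level.

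Markers of other cell types moved in the same libraries. The 6 neutrophil markers summed to between 1.41 and 3.21 CPM in vehicle and to 47.6 and 75.3 CPM with TPA. Csf3r (11.9 CPM in wild type, 34.8 CPM in knockout) and Cxcr2 (34.9 and 36.3 CPM) made up most of the TPA sums. Ly6g had no counts in any library but the knockout TPA one (0.0449 CPM), and Mpo was not called (-0.70 ± 0.58). Of 7 macrophage markers that cleared the low-count cutoff in vehicle and TPA libraries alike, 5 rose and 1 fell, and the list of 8 went in sum from between 110 and 128 CPM to 133 CPM (wild type) and 318 CPM (knockout) in TPA skin. Fibroblast markers went both ways, with 4 of 8 higher and 3 lower, and summed to between 650 and 1200 CPM in vehicle and 522 and 570 CPM with TPA. Of the 3 endothelial markers that cleared the cutoff on both sides 3 rose, and the list of 5 summed to between 3.11 and 4.86 CPM in vehicle and to 7.95 and 13.3 CPM with TPA. Langerhans cell markers fell in 5 of 5 cases and T cell markers in 4 of 6. Of the 6 keratinocyte markers themselves 1 was called higher, Krt14 (1.58 ± 0.09), and 2 lower, Krt10 (-1.845 ± 0.141) and Trp63 (-0.45 ± 0.12). Of 6 hair follicle and sebaceous gland markers 2 rose, the keratins Krt75, from between 6.39 and 12.2 CPM to 114 and 94.1 CPM (3.30 ± 0.19), and Krt79 (1.65 ± 0.17), with edgeR adjusted p = 5.76e-07 and 3.09e-05. No fibroblast, macrophage or endothelial marker was at 0 in all vehicle libraries. The part of any of these cells in the rises of the hyaluronan genes was not tested.

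Levels of different genes can be compared once they are divided by exon length. In vehicle skin, per kilobase of exon, Cd44 led with between 26.1 and 35.9 CPM per kb. Hyal2 (6.46 to 7.62 CPM per kb), Tmem2 (4.45 to 6.37) and Hyal1 (4.52 to 5.95) followed, and the last 2 overlapped each other. Has3 had between 1.98 and 2.42 CPM per kb and Has1 between 0.239 and 0.595. Has2 (0.0664 to 0.183) and Cemip (0.055 to 0.157) came last with overlapping ranges. In TPA skin Has3 moved to second place, with 24.8 CPM per kb in wild type and 17.9 in knockout, above Hyal2 with 13.7 and 11 CPM per kb. Has3 made up between 75.5% and 88.8% of the summed synthase level per kb in vehicle libraries and 91.9% and 90.8% with TPA. The summed level of the 3 synthases divided by that of Hyal1, Hyal2, Cemip and Tmem2 was between 0.133 and 0.184 in vehicle. It was 0.812 in wild-type and 0.61 in knockout TPA skin, and 0.173 and 0.282 with FA+TPA. These are ratios of transcript levels, not of enzyme activities.

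**Figure D2:**
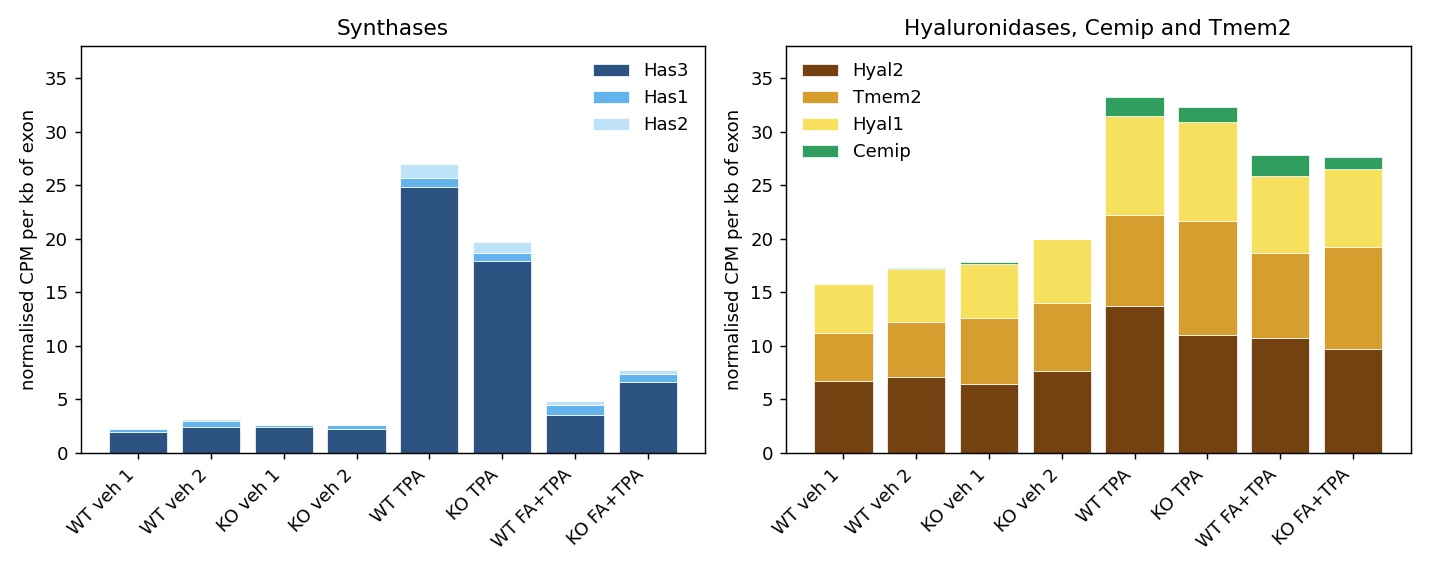
Stacked bars of normalised CPM per kilobase of exon in each of the 8 libraries (veh, vehicle), for the 3 synthases on the left and for Hyal2, Tmem2, Hyal1 and Cemip on the right, both on the same scale from 0. The synthase bars reach 27 and 19.7 with TPA and 4.82 and 7.79 with FA+TPA, whereas the bars on the right differ less, with 33.2 and 32.3 against 27.8 and 27.7.

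The glucocorticoid's effect on the TPA response was assessed by FA+TPA against TPA over both genotypes. Has3, Has2 and Cd44 were lower with FA, and by edgeR 0 of the 8 genes were called higher. Cemip, Has1 and Tmem2 stood within 0.13 log2 units of their TPA level, and Hyal1 and Hyal2 were lower by amounts that did not pass the test. The background was 4.31% of tested genes called lower and 5.71% called higher, and 25.4% had both FA+TPA libraries below both TPA libraries. Leaving out Has2 as above, 2 of 7 genes were called lower. The changes of these 7 genes lay between -2.09 (Has3) and -0.03 (Has1), where the median over all tested genes was 0.01. The comparison shares its TPA libraries with the one against vehicle, so the 2 sets of changes are not independent.

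Has3 was at 22.6 CPM in the wild-type and 42.4 CPM in the knockout FA+TPA library. Both lay below the TPA libraries and above the vehicle libraries. The difference from TPA was -2.09 ± 0.25 (edgeR adjusted p = 0.000568), and it passed in each of the 16 alternatives computed. Has2 was at 1.34 CPM (wild type) and 1.87 CPM (knockout) in FA+TPA skin (-1.59 ± 0.36, edgeR adjusted p = 0.0182). Its call was lost on leaving out 1 TPA library, wild type (edgeR adjusted p = 0.11) or knockout (0.0875), or the wild-type FA+TPA library (0.251), and over the alternatives that p ranged from 0.000132 to 0.251. Cd44 was at 321 CPM (wild type) and 416 CPM (knockout) in FA+TPA skin (-0.63 ± 0.11, edgeR adjusted p = 0.00512). It lost the call on leaving out the wild-type TPA (edgeR adjusted p = 0.0624) or the wild-type FA+TPA library (0.0902), within a range over the alternatives of 9.36e-06 to 0.0902.

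Cemip showed no such fall, at 23.9 CPM (wild type) and 14.1 CPM (knockout) in FA+TPA skin against 22.3 and 17 CPM with TPA alone (-0.06 ± 0.29, edgeR adjusted p = 0.936). Its estimate was positive without the wild-type TPA library (0.05) and without the knockout FA+TPA library (0.27). Has1 was at 4.33 and 3.2 CPM (-0.03 ± 0.33, edgeR adjusted p = 0.978), and its estimate was positive without the knockout TPA library (0.07). Tmem2 was at 67.9 and 81 CPM (-0.13 ± 0.10, edgeR adjusted p = 0.506). Hyal1 was at 27.2 and 27.6 CPM (-0.35 ± 0.13, edgeR adjusted p = 0.123) and Hyal2 at 35.2 and 31.9 CPM (-0.27 ± 0.13, edgeR adjusted p = 0.231). For Hyal1 and Hyal2 both FA+TPA libraries lay between the vehicle and TPA libraries. The standard errors of Cemip and Has1 are wide enough that a modest change in either direction was not detectable here.

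**Figure D3:**
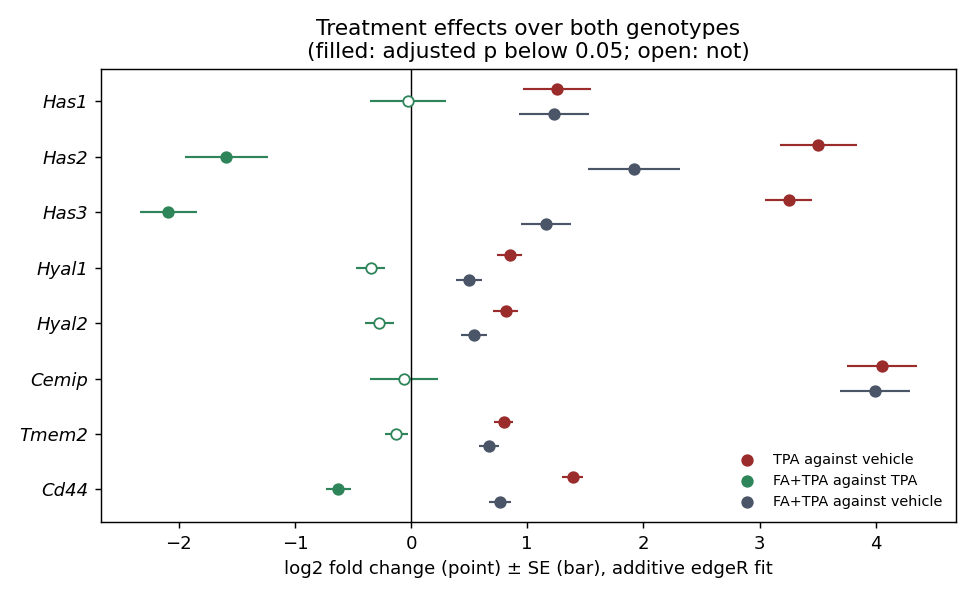
Log2 fold changes (points) with their standard errors (bars) for the 8 genes under 3 comparisons over both genotypes, with filled points where the edgeR adjusted p is below 0.05. The TPA points are all above 0, the filled FA+TPA against TPA points are those of Has2 (-1.59), Has3 (-2.09) and Cd44 (-0.63), and the points for FA+TPA against vehicle are all above 0.

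Against vehicle, FA+TPA left all 8 genes higher, where the background of higher calls was 17.4% and 24.7% of tested genes had both FA+TPA libraries above every vehicle library. Without Has2, 7 of 7 were called higher. Cemip differed from vehicle by 4.00 ± 0.30 (edgeR adjusted p = 8.04e-06), nearly the size of its difference under TPA alone. Tmem2 (0.67 ± 0.09, edgeR adjusted p = 0.000233) and Cd44 (0.77 ± 0.09, edgeR adjusted p = 0.000161) also passed in each of the 16 alternatives, as did Cemip. Has2 (1.92 ± 0.40, edgeR adjusted p = 0.00424) and Has3 (1.16 ± 0.21, edgeR adjusted p = 0.00208) lost the call without the knockout FA+TPA library (0.0954 and 0.0859), and the Has3 difference was then 0.58. Has1 (1.23 ± 0.30), Hyal1 (0.50 ± 0.11) and Hyal2 (0.54 ± 0.11) had an edgeR adjusted p of 0.0104, 0.00627 and 0.00391. Without the wild-type FA+TPA library these became 0.101, 0.114 and 0.0783, and without the knockout FA+TPA library 0.0803, 0.0539 and 0.0512. Hyal1 also lost its call with scaling by library size only (0.28, edgeR adjusted p = 0.0948).

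In the FA+TPA libraries the neutrophil list summed to 16.5 and 20.1 CPM, below the TPA libraries. Of the 2 neutrophil markers that cleared the low-count cutoff in TPA and FA+TPA libraries alike, both were called lower. Fibroblast markers summed to 281 and 370 CPM, with 1 of 8 lower, and macrophage markers to 144 and 169 CPM, with 2 of 8 higher and 1 lower. Of 6 keratinocyte markers 3 were higher, the keratins Krt5, Krt1 and Krt10. Krt10, at 9690 and 8680 CPM, was then within its vehicle range of 7910 to 9760 CPM. The follicle keratins Krt75 (to 16.9 and 19.2 CPM; -2.54 ± 0.24) and Krt79 (to 365 and 634 CPM; -1.21 ± 0.21) were lower, with edgeR adjusted p = 0.000178 and 0.00516. Of 6 T cell markers 1 was lower, Cd3e (-0.69 ± 0.19, edgeR adjusted p = 0.0451). Skeletal muscle markers summed to 93.8 and 105 CPM against 16.1 and 29.7 CPM with TPA, with 0 of 5 called by edgeR. These values moved with the falls of Has2, Has3 and Cd44, and their part in them was not tested.

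Knockout against wild type was assessed over all treatments and in vehicle skin alone. Of the 8 genes, Tmem2 was called higher in the knockout over all treatments, against a background of 1.98% of tested genes. Cd44 leaned the same way without passing the test. Tmem2 differed by 0.34 ± 0.07 (edgeR adjusted p = 0.0296), with 52.4 and 54.3 CPM against 37.9 and 43.7 CPM in vehicle, 90.9 against 72.2 CPM with TPA and 81 against 67.9 CPM with FA+TPA. Every knockout library was thus above every wild-type library of its treatment, a pattern that 8.98% of tested genes shared. That call was lost with 1 mean per group (edgeR adjusted p = 0.124). It also ended without either knockout vehicle library (0.0865 and 0.1), either TPA library (0.0826 without wild type and 0.0715 without knockout) or either FA+TPA library (0.094 and 0.0936), within a range over the alternatives of 0.00539 to 0.124.

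Cd44 was likewise higher in every knockout library than in the wild-type libraries of its treatment, by 0.29 ± 0.08 over all treatments (edgeR adjusted p = 0.074). That p ranged over the alternatives from 0.0111 to 0.284, and it passed with library size only (0.0322), without a low-count filter (0.0111) and in DESeq2 (0.0466). The other 6 genes had differences between -0.44 (Has1) and 0.13 (Has3). Each was smaller than 2 standard errors. In vehicle skin alone edgeR called 0 of 8 genes, where 2.17% of tested genes were called. At an unadjusted p under 0.05 there were 2, Tmem2 (0.39 ± 0.13) and Cd44 (0.32 ± 0.13), where 11.5% of tested genes passed that mark, and DESeq2 and limma-voom called 0. With a library left out, the difference in vehicle skin ranged from 0.284 to 0.494 for Tmem2 and from 0.205 to 0.447 for Cd44. Both were largest without the second wild-type vehicle library. That fit has 1 wild-type vehicle library and takes its spread from the knockout pair alone, so its calls are not given. Beside these differences, 2 of 6 hair follicle and sebaceous gland markers, Scd1 and Mc5r, were called higher in the knockout over all treatments. Of 6 T cell markers 2 were called lower, Cd3e and Trdc, and their list summed to 37.6 and 30.1 CPM in knockout and 53.9 and 53.7 CPM in wild-type vehicle libraries. Of 8 fibroblast markers 1 was called higher, Col6a3 (0.86 ± 0.15, edgeR adjusted p = 0.0122). Of 5 skeletal muscle markers 4 were called higher in knockout vehicle skin, with sums of 161 and 49.8 CPM against 19.2 and 4.97 CPM. The follicle and gland list summed to 4080 and 5200 CPM in knockout and 1570 and 2440 CPM in wild-type vehicle libraries, and the part of any of these cells was not tested.

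**Figure D4:**
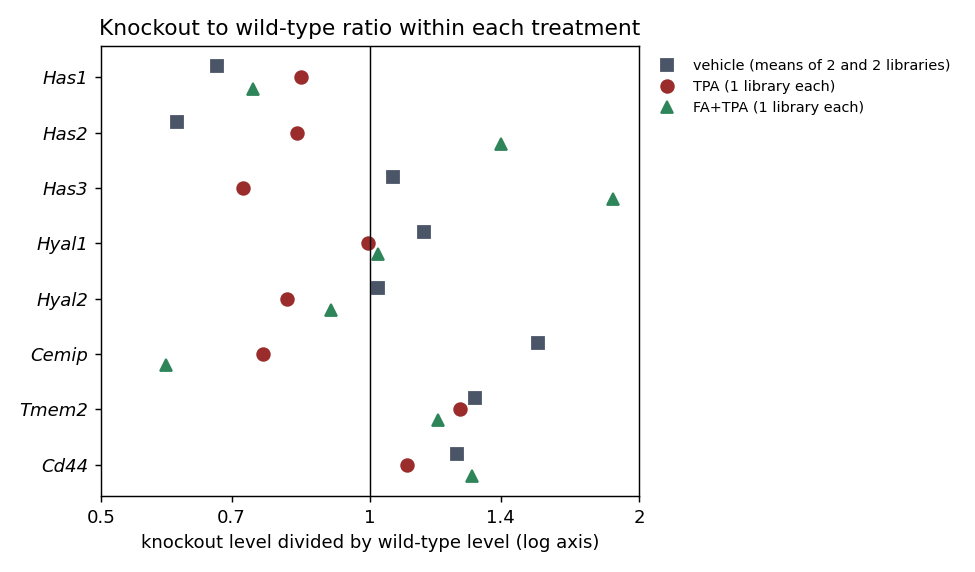
Knockout level divided by wild-type level (log axis) for each of the 8 genes within vehicle (squares, ratio of means of 2 libraries each), TPA (circles) and FA+TPA (triangles, 1 library of each genotype). The 3 points of Tmem2 (1.31, 1.26 and 1.19) and of Cd44 (1.25, 1.1 and 1.3) lie above 1, while those of Has2, Has3 and Cemip lie on both sides of it.

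Whether the genotypes responded differently was tested by the interaction of genotype with TPA and with FA, in a fit whose spread came from the vehicle pairs alone. By edgeR 0 of 8 genes were called for either interaction, and DESeq2 and limma-voom called 0 as well. At an unadjusted p under 0.05 there was 1 in each, Has3, where 5.27% of tested genes passed that mark for TPA and 3.18% for FA. Among all tested genes 0.00519% were called for TPA and 0% for FA, where DESeq2 called 7 genes. Has3 fell with FA from 158 to 22.6 CPM in wild type, 6.99-fold, and from 114 to 42.4 CPM in knockout, 2.69-fold. The difference between these falls was 1.38 ± 0.27 (edgeR adjusted p = 0.656), with 1 library per treated group. The estimate hardly moved without the first wild-type vehicle library (1.376) or the second (1.39). In those fits the spread came from the knockout vehicle pair alone, so they add nothing to the test. For TPA the Has3 interaction was -0.56 ± 0.23 (edgeR adjusted p = 0.908), from an 11.3-fold level in wild type and a 7.68-fold level in knockout. Without the second wild-type vehicle library this interaction was -0.73, with the same limit on its spread. Has2 changed with FA 4.01-fold downward in wild type and 2.37-fold in knockout (interaction 0.76 ± 0.72, edgeR adjusted p = 1). Cemip rose with TPA 24.8-fold in wild type and 12.2-fold in knockout (interaction -1.02 ± 0.54, edgeR adjusted p = 1).

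Other genes of the hyaluronan pathway were read from 5 lists. Of all tested genes, 23.2% were called higher and 22.8% lower with TPA. For FA+TPA against TPA the shares were 5.71% and 4.31%. Genes that cleared the low-count cutoff in fewer than 2 libraries of either group compared had entered the test through the other group. They are left out of the counts, and those named are given by their values. The shares of all tested genes were taken without this rule, so counts and shares are not on the same basis. Of the 8 genes that supply UDP-sugars, the synthases' substrates, 6 remained, of which 4 rose with TPA and 0 fell. Gfpt1, which starts the hexosamine pathway, stood at 25.4 to 34.7 CPM in vehicle skin and at 47.3 and 50.9 CPM with TPA (0.75 ± 0.10). Its isozyme Gfpt2, below the cutoff in every vehicle library, was at 0.103 to 0.409 CPM there and at 1.48 and 2.2 CPM with TPA. Ugdh, which makes UDP-glucuronic acid, rose by 0.33 ± 0.10. With FA, 1 of 6 fell, Gfpt1, to 31 and 38.2 CPM (-0.51 ± 0.11). The edgeR adjusted p of Gfpt1 and Ugdh with TPA was 1e-04 and 0.0145, and that of Gfpt1 with FA was 0.0162. The Ugdh call ended without the wild-type or the knockout TPA library (edgeR adjusted p = 0.145 and 0.052) and with library size only (0.483), within 0.0121 to 0.483 over the alternatives. The Gfpt1 call with FA ended without the wild-type TPA library (0.171), the wild-type FA+TPA library (0.165) or the knockout FA+TPA library (0.108), within 0.00446 to 0.171.

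Of 8 other hyaluronidases and lysosomal enzymes, 5 remained by the same rule, of which 1 rose and 1 fell with TPA. The beta-glucuronidase gene Gusb changed by 0.38 ± 0.12 (edgeR adjusted p = 0.0246). Hyal5, tested through its vehicle libraries, was between 0.318 and 0.75 CPM in vehicle and at 0 and 0.135 CPM with TPA, which is at or under the floor of 3 counts. With FA 2 of 5 rose, among them the hyaluronidase family member Hyal4 (0.66 ± 0.14, edgeR adjusted p = 0.0161), from 15.8 and 14.9 CPM to 25.7 and 22.8 CPM. The Gusb call ended without the second knockout vehicle library (edgeR adjusted p = 0.0676), the wild-type TPA library (0.0851) or the knockout TPA library (0.15), with 1 mean per group (0.0512) and with library size only (0.391). With FA, Hyal4 lost its call without any 1 of the 4 treated libraries (between 0.106 and 0.159). Over the alternatives these p ranged, with TPA, from 0.0201 to 0.391 for Gusb, and with FA from 0.00315 to 0.159 for Hyal4.

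Of 7 other hyaluronan receptors 4 remained, and 4 rose with TPA. Lyve1, a receptor of lymphatic endothelium, was below the cutoff in every vehicle library, at 0 to 0.466 CPM, and at 1.29 and 1.89 CPM with TPA. Stab1, a scavenger receptor of macrophages and endothelium, went from between 2.16 and 5.64 CPM to 39.6 and 54.2 CPM (3.47 ± 0.25, edgeR adjusted p = 2.48e-06). Hmmr, which also serves the mitotic spindle, went from between 4.8 and 9.22 CPM to 30 and 34.4 CPM with TPA (2.20 ± 0.19, edgeR adjusted p = 7.85e-06). In vehicle skin Hmmr was called higher in the knockout, at 8.86 and 9.22 CPM against 4.8 and 5.48 CPM (0.81 ± 0.17, edgeR adjusted p = 0.036). It was the only gene of the 5 lists called in a knockout comparison, where 2.17% of all tested genes were called in vehicle skin. The Hmmr call was lost with a minimum count of 50 (edgeR adjusted p = 0.0518), in limma-voom (0.076) and in DESeq2 (0.121). It was also lost when the vehicle libraries were fitted alone without a replicate block (edgeR adjusted p = 0.0745). Nor did it hold without the first or the second knockout vehicle library, where the difference was 0.839 and 0.782. Tlr2, an innate immune receptor, rose by 1.60 ± 0.22 (edgeR adjusted p = 0.00018). With FA 1 of 5 fell, Tlr2 (-0.92 ± 0.26, edgeR adjusted p = 0.0498). That call lies at the threshold and held in 7 of 16 alternatives, with p between 0.00789 and 0.423. It ended without the first knockout vehicle library (0.0689), the knockout TPA library (0.423) or either FA+TPA library (0.242 without wild type and 0.232 without knockout).

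Of 19 genes listed for proteins described as binding hyaluronan, not all of them matrix proteins, 5 remained. Of these 2 rose and 2 fell with TPA. Tnfaip6, which transfers heavy chains of inter-alpha-inhibitor onto hyaluronan, cleared the cutoff only in the TPA libraries. It was at 0.182 CPM or less in vehicle, at 0.925 and 1.89 CPM with TPA and at 0.127 and 0.543 CPM with FA+TPA. Itih5, of the heavy-chain gene family, went from between 28.8 and 43.2 CPM to 11.5 and 12.3 CPM (-1.56 ± 0.18, edgeR adjusted p = 5.51e-05). C1qbp, a mitochondrial protein also described as binding hyaluronan, rose by 0.99 ± 0.12 (edgeR adjusted p = 8.69e-05). With FA 4 remained, of which 1 fell and 0 rose. The proteoglycan gene Vcan changed by -1.29 ± 0.29 (edgeR adjusted p = 0.0173), which was lost on leaving out the knockout TPA (0.135) or the knockout FA+TPA library (0.223), within 0.000145 to 0.223 over the alternatives.

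Of 14 linkers, ligands, splicing factors and sheddases of Cd44, 12 remained, of which 7 rose and 2 fell with TPA. Msn, which ties the tail of Cd44 to actin, went from between 56.7 and 64.2 CPM to 187 and 205 CPM (1.70 ± 0.09, edgeR adjusted p = 2.54e-07). Spp1, the ligand osteopontin, cleared the cutoff in 1 of 4 vehicle libraries. It was at 0.136 to 0.516 CPM in vehicle and at 3.08 CPM (wild type) and 31.3 CPM (knockout) in TPA skin. Srgn, the proteoglycan serglycin of blood cells, went from between 1.22 and 1.45 CPM to 5.24 and 17.7 CPM (2.98 ± 0.34, edgeR adjusted p = 5.04e-05), or by 1.94 without the knockout TPA library. With FA 5 of 13 fell and 0 rose. Mmp9, a protease that Cd44 holds at the cell surface, went from 48.8 and 37.9 CPM to 7.19 and 11.2 CPM (-2.23 ± 0.19, edgeR adjusted p = 0.000106), below its vehicle range of 31.6 to 34 CPM. Msn went to 116 and 129 CPM (-0.68 ± 0.10, edgeR adjusted p = 0.00211). The epithelial splicing factors Esrp1 and Esrp2, which set the Cd44 isoform, did not pass in either comparison, and isoforms cannot be read from counts per gene.

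**Figure D5:**
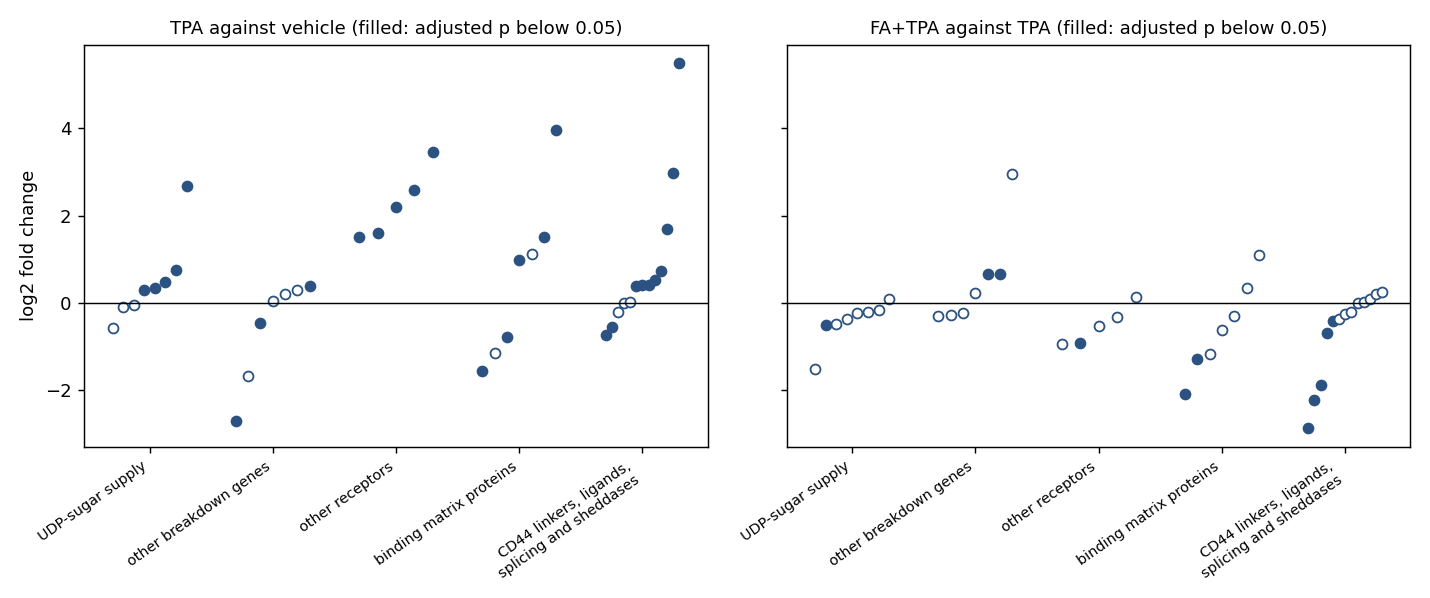
Log2 fold changes of the tested genes of the 5 pathway lists (1 point per gene, ordered by size within a list) for TPA against vehicle and for FA+TPA against TPA, filled where the edgeR adjusted p is below 0.05. Every tested gene is drawn, and the 4 receptor genes that cleared the low-count cutoff in both groups are filled and above 0 with TPA, and in the CD44 list the 5 filled points with FA lie below 0.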

How the data were processed

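Total RNA from epidermis was sequenced in 8 libraries. The submitters' processing notes name Trim Galore, STAR, HTSeq and the build mm10; versions, annotation and the strand and overlap settings are not given there or in the labels. The deposited values are raw read counts per Ensembl gene. Groups came from the sample titles. Symbols, coordinates and exon lengths came from GENCODE M21 (GRCm38, the assembly mm10 names), which matched 54165 of 54232 identifiers.

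Tests were run in edgeR 4.0.16 under R 4.3.3 (quasi-likelihood F tests, TMM, filterByExpr grouped by treatment, minimum count 10, Benjamini-Hochberg over 19251 genes, threshold 0.05). Treatment and overall genotype effects were fitted additively on all 8 libraries (4 residual degrees of freedom). Their spread comes from the vehicle pairs and from differences between the genotypes in response to treatment, as no treated group has a replicate. Genotype in vehicle and interactions were fitted with 1 mean per group (2 residual degrees of freedom, which come from the vehicle pairs; single treated libraries were assumed to vary alike). SE is the size of the log2 fold change over root F. The fits were tested on simulated counts. Vehicle replicates differed by more than sampling noise (chi-square per degree of freedom 27.57 and 12.37), so each was kept as a sample.

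The members, gene lists and tests were chosen with earlier results of these data known. All 8 members were named. From each pathway list the rule took up to 3 called genes with the smallest p for TPA and up to 2 for FA. A gene so taken is left unreported. List counts without genes that entered through 1 group were chosen after seeing the data, as was Hmmr in vehicle. Alternatives were scaling by RLE or by library size only, a minimum count of 50 or no low-count filter, limma-voom (limma 3.58.1), DESeq2 1.42.0, removal of Gm26917, 1 mean per group, replicate blocks and each library left out in turn. Promoter sequences are from RefSeq (GRCm38.p6), read on the gene's strand.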

Additional observations from a re-analysis of the deposited data

How the results depend on the processing

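Treated groups have 1 library per genotype, and interactions rest on 2 residual degrees of freedom, which limits every call. Has2, Has1 and Cemip had few counts in vehicle. The 64 single-gene results had 1004 values under the alternatives, of which 922 kept direction and side of the threshold, 65 lost the call, 8 gained it and 9 changed sign; the causes were not tested. With library size only, the median of all genes was -0.253 for TPA against vehicle (-0.028 with TMM). For FA+TPA against vehicle it was -0.233 (-0.014 with TMM). The calls became 2846 higher and 6432 lower for TPA (4472 and 4380 with TMM). For FA+TPA they became 1953 and 4982 (3347 and 2729). Over all treatments the knockout calls became 640 higher and 233 lower (382 and 308). The hyaluronan genes that rose with TPA did so under every scaling.

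Among the 8 genes, calls with a library left out ranged from 1 to 3 for FA+TPA against TPA, 3 to 8 for FA+TPA against vehicle, 0 to 1 for knockout over all treatments, 0 to 2 for knockout in vehicle and 0 to 1 for either interaction. For knockout over all treatments 2 were called with library size only, without a low-count filter and in DESeq2, and 0 with 1 mean per group. Without 1 vehicle library, the fits of knockout in vehicle and of the interactions take their spread from the other vehicle pair alone. Calls gained there are therefore not read as a difference between genotypes.

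Among all genes the calls with a library left out ranged from 571 to 2367 (1929 with all) for FA+TPA against TPA, 2652 to 6051 (6076) for FA+TPA against vehicle, 288 to 630 (690) for knockout over all treatments, 440 to 1465 (418) for knockout in vehicle, 6 to 365 (1) for the TPA interaction and 51 to 183 (0) for the FA interaction. Without a low-count filter 1552 genes were called for knockout over all treatments and 21 for the TPA interaction; with 1 mean per group 450. A minimum count of 50 gave 219 for knockout in vehicle and 0 for the TPA interaction. DESeq2 gave 272 for knockout in vehicle, 11 for the TPA and 7 for the FA interaction; limma-voom gave 0 and library size only 3 for the TPA interaction.

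Signs changed only with a library left out. FA+TPA against TPA ranged from -0.51 to 0.27 for Cemip and -0.156 to 0.069 for Has1. Knockout over all treatments ranged from -0.13 to 0.39 for Has3, -0.456 to 0.023 for Has2 and -0.49 to 0.025 for Cemip (0.017 without the knockout FA+TPA library). The TPA interaction of Has2 ranged from -0.48 to 0.98.

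Replicate numbers are shared between the vehicle groups, but their deviations did not go together (r = -0.0984 across 19251 genes, which are not independent). This check showed no pairing by number. As it rests only on the difference between replicates within each genotype, it cannot exclude pairing. With the replicate block, vehicle libraries alone gave 651 calls and 0 of the 8 genes.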

Other observations

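Genes whose level ran closest to each hyaluronan gene were read by Pearson's r over the 8 libraries, among abundant named genes. Levels were taken as log2 of CPM plus 2, here and among the members. The added 2 CPM is above every vehicle level of Has2 and Cemip, so differences among their vehicle libraries count for little. The points share the TPA contrast, so r is high for many genes, and it is given as a description. Closest to Has3 were Aldh1a3 (r = 0.995), Clptm1l and Elf5. Closest to Has2 were Myd88 (r = 0.9976), the stress keratin gene Krt17 and St3gal1. Cemip ran closest to Hist1h1d (r = 0.995), the kallikrein gene Klk8 and Syt8. Cd44 ran closest to Klhdc10 (r = 0.9965), Dad1 and Smndc1, and Has1 to Ube2g1 (r = 0.9868), Yif1b and Desi2. For Hyal1 they were Dpagt1 (r = 0.9947), Qsox1 and Slc37a2, for Hyal2 Opa3 (r = 0.9912), Cbx5 and Nup93, and for Tmem2 Kbtbd8 (r = 0.9943), Aldh7a1 and Thbs1. Among the members themselves Has2 and Has3 ran closest together (r = 0.989), and Has1 and Has3 least so (r = 0.699).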
